A study of Picea abies with 48 samples.

Results

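*PaAPL-like* is the *Picea abies* (Norway spruce) gene model MA_201937g0010, which the study's identifier table annotates as a myb family transcription factor and pairs with *Arabidopsis APL*. It was read as the single row of that identifier in a table of RNA-seq read counts, 1 of 70736 gene models and 1 of the 38436 that passed a filter on low counts. Its level was followed through 48 libraries in 16 groups. Intact, that is ungrafted, hypocotyl was taken on days 0, 1, 3, 7, 14 and 28, and scion and rootstock, the tissue just above and just below the graft junction, on days 1, 3, 7, 14 and 28. Time is counted in days after grafting (DAG). All groups were wild-type (WT) seedlings of the line labelled FP-96 Skogsgård, and no group carried a transgene or received a chemical treatment. Scion and rootstock came from seedlings grafted to their own species. Each group had 3 biological replicates and each replicate pooled tissue of 5 plants, with about 1 mm from one side of the junction or 2 mm from an intact plant, so variation between single plants was not visible. The label hypocotyl could not be checked against defining markers, since the sources used here annotate no gene that marks spruce hypocotyl. The study named *PaAPL-like* from among genes that had already been found to respond to grafting in these same libraries, so a change after grafting is not independent evidence of its choice.

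APL, for ALTERED PHLOEM DEVELOPMENT, is known from *Arabidopsis* as a MYB coiled-coil (MYB-CC) transcription factor that acts in the phloem, the tissue that carries sugars through the plant. There it is needed for sieve elements and companion cells to form, and without it cells in phloem positions take on xylem features. Conifer phloem is built of sieve cells with albuminous cells beside them, and at a graft junction cut vascular strands have to be joined again before sugars and water cross. What *PaAPL-like* itself does in spruce is not given in the sources used here.

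Library totals ran from 11511598 to 27687377 counted reads, and *PaAPL-like* received 27 to 232 of them per library, with a median of 97. Levels below are normalized reads, which are counts divided by a size factor for each library, and are given as mean ± SD of 3 libraries. Replicates of every group correlated at 0.962 or more over the genes tested. Differences are log2 fold changes of edgeR's quasi-likelihood test with standard error (SE) and Benjamini–Hochberg adjusted *p* over all 38436 genes. A gene was called where that *p* was under 0.05 and the log2 fold change above 1 or below −1, and for a change of a difference between days the *p* alone decided. In bulk tissue, fewer cells of a type and less RNA per cell cannot be told apart.

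In intact hypocotyl the level of *PaAPL-like* had no called change from day 0 over 28 days. All 18 intact libraries lay between 39.5 and 84.4 normalized reads, with a median of 62.3. On day 0 the 3 libraries held 54.3, 48.2 and 81.6 normalized reads. They held 84.4, 82.3 and 80.6 on day 1, when the mean was 82.4 ± 1.88. On day 3 they held 58.2, 72.0 and 46.4 normalized reads. Day 1 was therefore the highest intact group, and all 3 of its libraries lay above every library of days 3, 7, 14 and 28. The day 0 library with 81.6 normalized reads reached the band of day 1, while the other day 0 libraries did not.

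On day 7 the intact level was 39.5, 60.7 and 63.0 normalized reads, and on day 14 it was 58.4, 74.8 and 55.8. The day 28 libraries held 61.6, 76.5 and 63.5 normalized reads, a mean of 67.2 ± 8.07. These 3 groups overlapped each other and day 0. Set against day 0, the log2 fold change was 0.41 (SE 0.19) on day 1 with an edgeR adjusted *p* of 0.277. It was −0.10 on day 3, −0.19 on day 7, 0.03 on day 14 and 0.14 on day 28, with edgeR adjusted *p* of 0.49 to 0.922, so no intact day was called. Over the same days the share of all tested genes called against day 0 went from 0.216% on day 1 and 3.6% on day 3 to 14.9%, 15.8% and 17.9% on days 7, 14 and 28. The 95% interval of the day 28 log2 difference, −0.26 to 0.53, covers neither a change of 1 nor of −1.

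**Figure D1:**
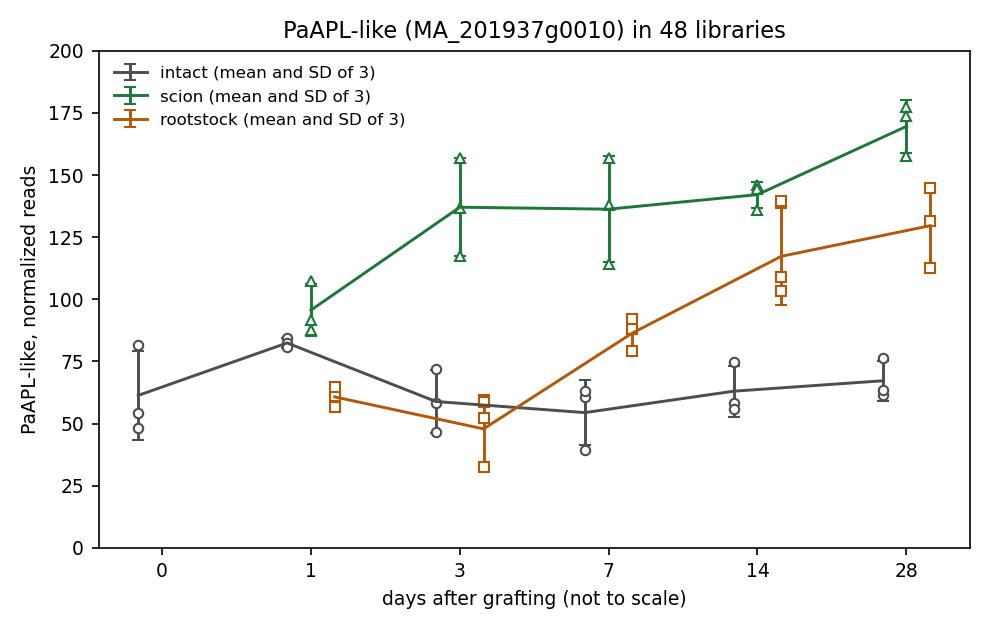
Normalized reads of *PaAPL-like* (vertical axis) by day after grafting (horizontal axis, evenly spaced) in intact, scion and rootstock tissue. Open symbols are the 48 libraries and lines join group means with SD of 3. Intact libraries stay between 39.5 and 84.4, scion libraries lie between 114 and 177 from day 3, and rootstock means go from 47.9 on day 3 to 130 on day 28.

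Above the junction *PaAPL-like* was at a higher level from 3 DAG on. On day 1 the 3 scion libraries held 91.8, 107 and 87.6 normalized reads, a mean of 95.6 ± 10.5. All 3 lay above the 3 intact libraries of that day, but the nearest pair was only 3.24 normalized reads apart. The log2 fold change to intact was 0.19 (SE 0.17, edgeR adjusted *p* = 0.367), while 22.7% of all tested genes were called in that comparison. Against day 0 the same scion libraries gave 0.61 (SE 0.19, edgeR adjusted *p* = 0.00542), short of the fold a call needs, which 23.8% of genes passed, and 0.57 with an adjusted *p* of 0.0561 after thinning to the smallest total. Thinning, here and below, was a single random draw of reads, so its values also carry the noise of that draw.

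On day 3 the scion libraries held 117, 137 and 157 normalized reads against 58.2, 72.0 and 46.4 in intact plants. Even the lowest scion library lay 45.4 normalized reads above the highest intact one. The log2 fold change of 1.28 (SE 0.18, edgeR adjusted *p* = 2.14e-07) was called, in a comparison that called 17.4% of genes. It was higher than that of 91.1% of all tested genes.

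Later scion groups stayed at or above this level. Scion libraries of day 7 contained 114, 138 and 157 normalized reads and those of day 14 contained 136, 146 and 144. The highest libraries of the series, 158, 177 and 174 normalized reads with a mean of 170 ± 10.6, came from scion of day 28. None of the scion libraries of these days overlapped the intact ones of its day. Against intact plants the log2 fold changes were 1.37 (SE 0.19, edgeR adjusted *p* = 9.08e-08) on day 7, where 18.0% of genes were called, and 1.21 (SE 0.18, adjusted *p* = 5.42e-07) on day 14, where 18.5% were. On day 28 it was 1.34 (SE 0.17, adjusted *p* = 6.05e-08), and 10.8% of genes were called. Each of these days used its own intact libraries, and 969 of 38436 genes (2.52%) were called higher in scion on all of days 3, 7, 14 and 28, of which 322 were, like *PaAPL-like*, not called on day 1. With intact day 0 as the common reference instead, scion values were 1.18, 1.17, 1.24 and 1.48 on days 3, 7, 14 and 28, all called (edgeR adjusted *p* of 4.08e-09 to 7.99e-07), as were 20%, 18.1%, 22.3% and 23.2% of genes.

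Within scion the step from day 1 to day 3 was the one that passed the edgeR *p* threshold. The log2 level was higher on day 3 by 0.58 (SE 0.17, edgeR adjusted *p* = 0.00711), below the fold of a call, which 10.4% of genes passed. The steps from day 3 to 7, 7 to 14 and 14 to 28 were −0.01, 0.06 and 0.24, with edgeR adjusted *p* of 0.98, 0.868 and 0.32, and 4.34%, 2.91% and 6.72% of genes were called. For the last of these, the 95% interval of −0.09 to 0.57 leaves room for a higher level, and the scion libraries of day 14 did not overlap those of day 28. TMM factors, which correct for a few abundant genes taking up reads, were 1.00 to 1.13 in scion and 0.888 to 1.06 in intact libraries. Scaling by library size alone moved the median log2 difference of all genes by 0.17 on days 1 and 14 and by 0.16 on days 3 and 7 in scion minus intact. Relative to that median, *PaAPL-like* was higher by 1.24 on day 3 with TMM factors and by 1.24 without.

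Below the junction the level of *PaAPL-like* was at or under that of intact plants on days 1 and 3 and above it from day 7. The day 1 rootstock libraries held 56.5, 61.1 and 64.6 normalized reads, all below the intact libraries of that day, which held 80.6 to 84.4. The log2 fold change was −0.47 (SE 0.18, edgeR adjusted *p* = 0.0253), less than the fold of a call, and 30.3% of genes were called. Leaving out each of the 6 libraries in turn took it from −0.52 to −0.42, with adjusted *p* from 0.0326 to 0.08, and with counts thinned to the smallest total it was −0.33 with an adjusted *p* of 0.279. Against day 0 the rootstock level differed by −0.05 on day 1 (SE 0.19, adjusted *p* = 0.832) and by −0.32 on day 3 (SE 0.20, adjusted *p* = 0.178), where 31.0% and 24.3% of genes were called. Intact plants of day 1 were the group that lay highest among intact plants, as given above.

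On day 3 rootstock held 52.2, 32.5 and 58.9 normalized reads, the lowest group mean of the series (47.9 ± 13.7). Its libraries overlapped those of intact plants, and the log2 fold change was −0.22 (SE 0.20, edgeR adjusted *p* = 0.386) where 19.7% of genes were called. Replicate 2, with 32.5 normalized reads, was the lowest library of all 48, and without it the difference was 0.01. Day 7 brought 88.1, 92.2 and 79.0 normalized reads, and no library overlapped the intact ones of that day. The step from day 3 to day 7, 0.82 on the log2 scale (SE 0.18, edgeR adjusted *p* = 0.000917), fell short of the fold that 6.67% of genes passed. Over the alternative settings it was 0.58 to 0.83 with adjusted *p* from 9.94e-05 to 0.1. These settings include the sum of its counts with those of a neighbouring gene model, MA_201937g0020, which is another quantity than *PaAPL-like* alone. The other steps were −0.27 from day 1 to 3, 0.45 from day 7 to 14 and 0.13 from day 14 to 28, with adjusted *p* of 0.272, 0.0622 and 0.649, where 16.6%, 5.32% and 6.9% of genes were called.

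From day 7 on rootstock lay above intact plants by less than the fold of a call. The day 14 libraries held 109, 103 and 140 normalized reads and those of day 28 held 145, 113 and 131. All were above every intact library of the series, and so were 2 of the 3 day 7 libraries. Log2 fold changes to intact plants were 0.69 (SE 0.20, edgeR adjusted *p* = 0.00487) on day 7, 0.92 (SE 0.19, adjusted *p* = 9.41e-05) on day 14 and 0.95 (SE 0.18, adjusted *p* = 6.98e-05) on day 28. In these comparisons 11.5%, 14.1% and 9.24% of genes were called. Against day 0 the day 7 value was 0.50 (SE 0.19, adjusted *p* = 0.0265), where 19.3% were. After thinning to the smallest total the day 7 values were 0.59 against intact plants of that day and 0.54 against day 0, with adjusted *p* of 0.0756 and 0.0845.

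A single library decided on which side of the fold threshold the late rootstock values fell. On day 14 the log2 fold change was 1.06 without intact replicate 2 and 1.00 without rootstock replicate 2, and on day 28 it was 1.05 and 1.01 without the libraries of the same names. Against day 0 the value on day 28 was 1.08 (SE 0.18, edgeR adjusted *p* = 4.37e-06) and was called, as were 21.8% of genes, but it was 0.92 without intact day 0 replicate 2. The day 14 value against day 0 was 0.95 (SE 0.19, adjusted *p* = 4.26e-05), where 20.3% of genes were called, and 1.22 without intact day 0 replicate 3, 1.00 without rootstock replicate 1 and 1.03 without rootstock replicate 2. In all of these the level of *PaAPL-like* in late rootstock was higher, and the interval of the day 28 difference from intact plants was 0.59 to 1.31.

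**Figure D2:**
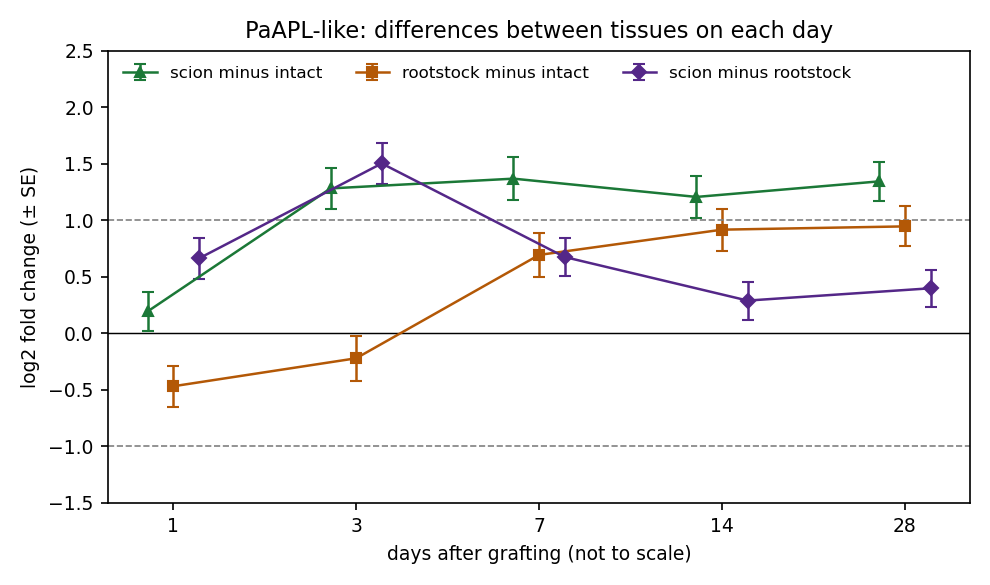
Log2 fold change of *PaAPL-like* with SE (vertical axis) on each day after grafting for scion minus intact, rootstock minus intact and scion minus rootstock. Dashed lines mark 1 and −1, the fold a call needs. Scion minus intact is above 1 from day 3, rootstock minus intact moves from −0.47 to 0.95, and scion minus rootstock peaks at 1.50 on day 3.

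Comparing the 2 sides of the junction directly does not use the intact libraries, which the comparisons of scion and of rootstock with intact plants share. Intact tissue was not divided into an upper and a lower part, so side of the graft and position along the stem cannot be told apart. Scion was higher than rootstock in all 9 pairs of libraries on days 1, 3, 7 and 28 and in 8 of 9 pairs on day 14. The log2 difference was 0.66 (SE 0.18, edgeR adjusted *p* = 0.00442) on day 1, which thinning all libraries to the smallest total took to 0.39 (adjusted *p* = 0.296). It was 1.50 (SE 0.18, edgeR adjusted *p* = 1.01e-08) on day 3 and 0.67 (SE 0.17, adjusted *p* = 0.00166) on day 7. Only the day 3 difference, 137 ± 19.8 against 47.9 ± 13.7 normalized reads, was large enough for a call, and 11.6% of genes were called on that day, 10.2% on day 1 and 10.2% on day 7. It exceeded the scion minus rootstock difference of 94.3% of all tested genes.

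On days 14 and 28 the adjusted *p* did not separate the sides. The log2 difference was 0.29 (SE 0.17, edgeR adjusted *p* = 0.351) on day 14 and 0.40 (SE 0.16, adjusted *p* = 0.384) on day 28, where 3.19% and 0.172% of genes were called. Their 95% intervals, which are not adjusted for the number of genes, leave room for a higher level in scion. The day 14 interval of −0.05 to 0.63 covers 0. The day 28 interval of 0.06 to 0.73 lies above 0, with an edgeR *p* of 0.0199 before adjustment. On day 28 the libraries did not overlap, since the lowest scion library lay 12.8 normalized reads above the highest rootstock library. The difference itself changed, being lower on day 28 than on day 3 by a log2 value of −1.10 (SE 0.24, edgeR adjusted *p* = 0.0011), a contrast in which 13.7% of genes had an adjusted *p* under 0.05. From day 3 to day 7 it moved by −0.83 (SE 0.25, adjusted *p* = 0.0509), where 3.28% of genes passed. Over the alternative settings, the sum with MA_201937g0020 among them, that *p* ranged from 0.0177 to 0.325. Leaving out scion day 3 replicate 1, rootstock day 3 replicate 3 or scion day 7 replicate 3 brought the change to −0.93, −1.002 and −0.94, all past the threshold. Changes to day 28 from days 1, 7 and 14 were −0.26, −0.28 and 0.11, with adjusted *p* of 0.596, 0.539 and 0.949, where 12.3%, 12.2% and 1.52% of genes passed.

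Over all 5 grafted days the ordering of tissues was tested on this gene alone, without the fitted dispersion. The mean difference of log2 (normalized reads + 1) over the days was 1.05 for scion minus intact, positive on 5 of 5 days. A two-sided exact permutation test that exchanged libraries within days gave *p* = 6.25e-07, the smallest that 3200000 exchanges can give, and 1.88e-06 after adjustment over 3 comparisons. Scion minus rootstock had a mean of 0.70, positive on 5 of 5 days, with an adjusted exact permutation *p* of 1.88e-06. For rootstock minus intact the mean was 0.35, positive on 3 of 5 days, with an adjusted exact permutation *p* of 0.0271, and that *p* was 0.154 when replicate 1 of every group was left out and 0.224 when replicate 3 was.

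The level of *PaAPL-like* was related to the day after grafting on both sides of the junction. Over 15 rootstock libraries log2 level and log2 day had a Pearson *r* of 0.81 (adjusted permutation *p* = 0.00036 over 3 tissues) and a Spearman rho of 0.87 (adjusted permutation *p* = 0.00018). Over 15 scion libraries *r* was 0.83 (adjusted permutation *p* = 0.00036) and rho 0.80 (adjusted permutation *p* = 0.00117). In 15 intact libraries *r* was −0.30 and rho −0.27, with permutation *p* of 0.272 and 0.33. On the log2 scale the 3 day 1 libraries of a tissue lay equally far from the median day, and farther than all others. With 2 of these 3 left out, *r* was 0.82 in rootstock, 0.76 in scion and 0.00 in intact plants. As 1 day 1 library stayed in, these values do not show the relation without day 1. The fitted slope was 0.28 on the log2 scale per doubling of the day in rootstock and 0.15 in scion, and the difference between these slopes was not tested.

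Ordered by mean, the 16 groups formed a gradual series from 47.9 normalized reads in rootstock on day 3 to 170 in scion on day 28, a ratio of 3.54. The 7 lowest groups were rootstock of days 1 and 3 and intact plants of days 0, 3, 7, 14 and 28, and each overlapped its neighbour in the order. Intact day 1 came next, with a mean 15.2 normalized reads above that of intact day 28 and no overlap between their libraries. Rootstock day 7, scion day 1, rootstock days 14 and 28 and scion days 7, 3 and 14 followed, each overlapping the one before. The last step, from 142 ± 5.27 in scion of day 14 to 170 ± 10.6 in scion of day 28, was the only other gap without overlap. Of the 15 neighbouring pairs, 4 differed by more than their pooled SD, so most neighbours in this order did not differ beyond their spread.

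**Figure D3:**
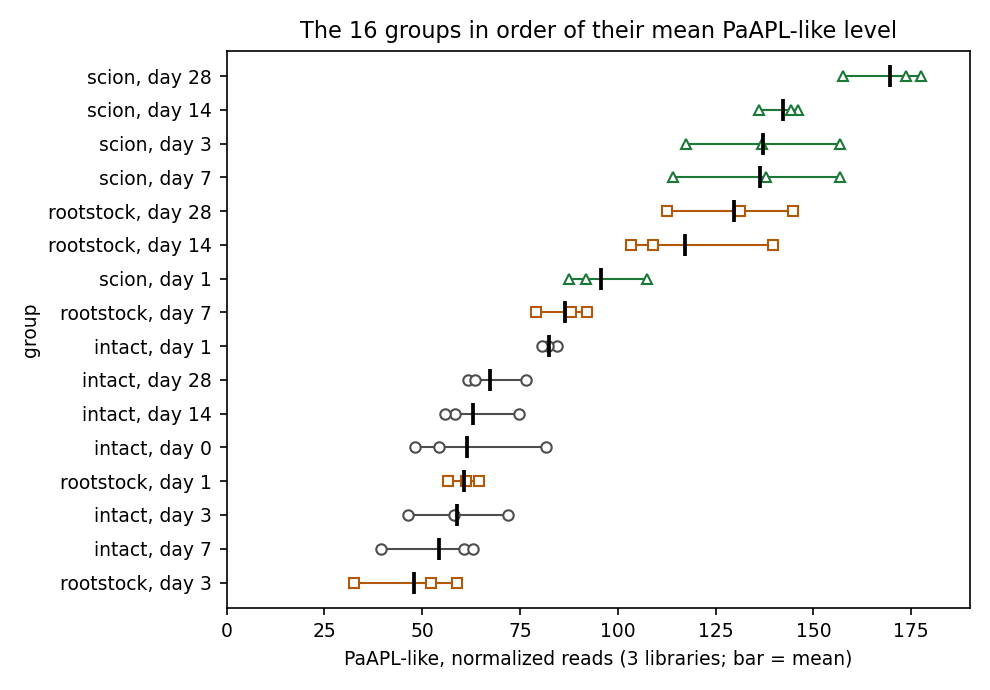
The 16 groups in order of mean *PaAPL-like* level, with normalized reads on the horizontal axis. Open symbols are the 3 libraries of a group and the black bar is their mean. Scion groups from day 3 occupy the top with libraries from 114 to 177, and 7 groups of intact plants and early rootstock lie together at the bottom.

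A neighbouring gene model, MA_201937g0020, carries the same scaffold number in its identifier and had the pattern most like that of *PaAPL-like* among all genes tested. It was chosen after its values had been seen, and the sources used here give it no annotation. Over the 16 group means the Pearson correlation of log2 levels of both models was 0.96, and over the 48 libraries, which share tissue, day and depth, it was 0.90. Deviations from the group means correlated at 0.13. Among 2414 pairs of tested models with consecutive numbers on 1 scaffold, the median correlation over 16 groups was 0.72 and 87.9% of pairs had a lower one, while the median correlation of deviations was 0.17 and 44.1% of pairs had a lower one than 0.13. Of the reads of both models *PaAPL-like* took 35.0 ± 5.06% in 18 intact libraries, 35.3 ± 3.58% in 15 scion libraries and 35.5 ± 3.94% in 15 rootstock libraries. Whether the models are parts of 1 gene was not tested, since no genome or annotation was used.

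The neighbour was called in scion on the same days as *PaAPL-like*. Its scion log2 fold changes to intact plants were 0.53 on day 1 and 1.15 to 1.31 on days 3, 7, 14 and 28. In rootstock they were −0.56, 0.06, 0.32, 0.91 and 0.99 on days 1, 3, 7, 14 and 28. Between the sides of the junction the neighbour was already called on day 1, at 1.10 (SE 0.12, edgeR adjusted *p* = 2.97e-09) against 0.66 for *PaAPL-like*, and again on day 3 at 1.10 against 1.50. Differences between the models were not tested. Counting both models as 1 gene gave a change of the scion minus rootstock difference from day 1 to day 28 of −0.59 with an edgeR adjusted *p* of 0.00486, where *PaAPL-like* alone had not passed. The neighbour alone passed that contrast at −0.77 (SE 0.17, edgeR adjusted *p* = 0.00114). It also passed from day 7 to day 28 at −0.50 (SE 0.16, adjusted *p* = 0.0391), where *PaAPL-like* did not.

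Levels of xylem and division markers are set beside these differences. *PaVND4-like*, related to regulators of water-conducting vessel cells in *Arabidopsis*, and the peroxidase *PaPRX66-like* stand for xylem in the study, and both passed the filter and were at 0 in no library. Their summed level was 312 to 903 normalized reads in intact, 174 to 1579 in scion and 44.5 to 705 in rootstock libraries. On day 3, when *PaAPL-like* differed most between the sides, this sum was 1427 ± 157 in scion, 452 ± 13.4 in intact plants and 77.3 ± 21.6 in rootstock. On day 1 it was 217 ± 37.6 in scion and 67.4 ± 20.7 in rootstock against 728 ± 163 in intact plants, so that it lay below intact in scion, where *PaAPL-like* did not. The division marker *PaCDKB2;2-like*, a cyclin-dependent kinase, lay at a like level on both sides on day 3, with 1124 ± 5.82 normalized reads in scion and 1103 ± 97.5 in rootstock against 737 ± 80.4 in intact plants. The part of these markers in the *PaAPL-like* differences was not tested.

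Genes grouped here as phloem transport were described beside *PaAPL-like*. The grouping was made for this report from annotations that name SWEET sugar transporters, sucrose synthases, a phloem protein and a plasmodesmata protein. Whether any of them marks phloem in spruce was not checked. This list holds 8 genes from the study's tables of responding genes, which were shortened in the form used here, so it is neither complete nor independent of these libraries. The sugar transporter gene *SWEET3-like* did not pass the filter on low counts, which left 7. Their summed level was 509 to 774 normalized reads in intact, 636 to 831 in scion and 703 to 949 in rootstock libraries, with the highest libraries below the junction. Genes with more reads weigh more in this sum. The sucrose synthase models MA_27253g0010 and MA_113423g0010 held 154 to 472 and 105 to 307 normalized reads, while *SWEET1* held at most 109 and MA_1889g0010 at most 40.2. Over the 10 grafted minus intact comparisons these 7 genes gave 10 calls higher and 4 lower. Of all genes tested, 9.24% to 30.3% were called in either direction and 7.27% to 13.8% were called higher. Whether the list was called more often than all genes was not tested. Its median log2 fold change was 0.00 to 0.70 against −0.05 to 0.07 over all genes tested. On day 14 in scion a *sucrose synthase* model (MA_113423g0010) was at 0.65 and a *sucrose synthase 2* model (MA_27253g0010) at 0.54, with edgeR adjusted *p* of 0.00103 and 0.000994 but under the fold of a call, which *PaAPL-like* passed that day at 1.21.

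Both SWEET genes that passed the filter were called on day 1, when 11.4% of all genes tested were called higher in scion and 13.8% in rootstock. *SWEET1*, a sugar transporter of the SWEET family, was higher on day 1 by 1.30 in scion and 1.91 in rootstock and called in both, and *SWEET3b* by 1.07 and 1.23. In rootstock *SWEET1* was also called on day 3 (1.06) and *SWEET3b* on day 14 (1.09). *PHLOEM PROTEIN 2-LIKE A1-like*, named after a lectin of *Arabidopsis* phloem, was called on day 3 on both sides, on day 1 in rootstock and on day 28 in scion, at 1.52 to 2.97, but it held at most 14.9 normalized reads and was at 0 in 3 libraries. A *sucrose synthase 2* model (MA_1889g0010), whose enzyme class cleaves sucrose, was lower on day 3 by log2 values of −1.03 in scion and −1.40 in rootstock. *PLASMODESMATA CALLOSE-BINDING PROTEIN 5-like*, whose *Arabidopsis* relatives bind callose at cell wall pores, was called lower in rootstock on day 1 (−1.22) and in scion on day 28 (−1.09). Of all genes tested, 9.82% and 7.86% were called higher in scion on days 3 and 28. In rootstock 9.56% and 9.31% were on days 3 and 14. In either direction 17.4% and 10.8% were called in scion on days 3 and 28, and 30.3% and 19.7% in rootstock on days 1 and 3.

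Genes with Dof and MYB-CC annotations gave calls in 1 direction. Dof proteins include regulators of early phloem in *Arabidopsis*, and MYB-CC proteins form the family of APL. Of 7 listed genes 6 passed the filter, and at least 5 of these came from genes that the study grouped by their rise in these libraries, so their direction is not independent evidence. In scion 6, 5, 5, 4 and 4 of the 6 were called higher on days 1, 3, 7, 14 and 28, and in rootstock 3, 2, 4, 4 and 3, which makes 40 calls. Over all genes tested 11.4%, 9.82%, 10.8%, 11% and 7.86% were called higher in scion and 13.8%, 9.56%, 7.55%, 9.31% and 7.27% in rootstock on these days. The median log2 fold change was 1.10 to 1.91 in scion and 0.71 to 1.52 in rootstock. The listed gene MA_84935g0010 is named only after *Arabidopsis* At1g14600, and its place in the MYB-CC family was not checked. It gave 4 of the calls in scion and 5 in rootstock, at up to 8.71.

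Within that list the Dof gene MA_56828g0010 was most like *PaAPL-like* in pattern. Its Pearson correlation with *PaAPL-like* over the 16 groups was 0.90, higher than that of 99.8% of genes compared. It was called in scion on days 1, 3, 7 and 28, at 1.30, 1.87, 2.13 and 1.30, and on no day in rootstock, where it went from −0.93 on day 1 to 0.71 on day 28. *PHL7-like*, a MYB-CC gene, had a correlation of 0.85 and was called in scion on all 5 days (1.54 to 2.15) and in rootstock on 4, with −0.00 on day 3. The Dof gene MA_18267g0010 was called in scion on all 5 days at 1.05 to 1.43, from day 1 on, when *PaAPL-like* was at 0.19.

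The study named 15 other genes beside *PaAPL-like*, with the results of these same libraries known, so their calls are not independent evidence. On day 7, 13 of the 15 were called higher in scion and 13 in rootstock, with medians of 3.21 and 2.60, and on day 28 this was 6 and 7, with medians of 0.92 and 0.87. Over all genes tested 10.8% and 7.55% were called higher on day 7 and 7.86% and 7.27% on day 28. *PaAPL-like* had its value of 1.34 in scion on day 28, when *PaWOX13-like*, a wound-related homeobox gene, was at 0.97 and the pectin gene *PaPME5-like* at 0.12, neither called. The 6 called genes lay between 1.32 for *PaKOR1-like*, a cell wall gene, and 5.98 for *PaERF115-like*, with *PaMYB4-like* at 1.35, *PaPRX66-like* at 2.46, *PaPECTIN LYASE-like* at 3.04 and *PaMYB123-like* at 5.88. Between the sides of the junction 3 of these genes were called higher in scion and 1 lower on day 3, where 11.6% of all genes were called, when *PaAPL-like* was at 1.50. *PaPAT1-like*, a GRAS transcription factor, was the named gene with the highest correlation to *PaAPL-like* over the 16 groups, 0.89. It was called on days 7 and 14 on both sides, at 1.54 and 1.37 in scion and 1.14 and 1.31 in rootstock. *PaVND4-like* had a correlation of 0.61 and was called only lower, in rootstock on days 1 and 3 (−2.81 and −2.99).

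**Figure D4:**
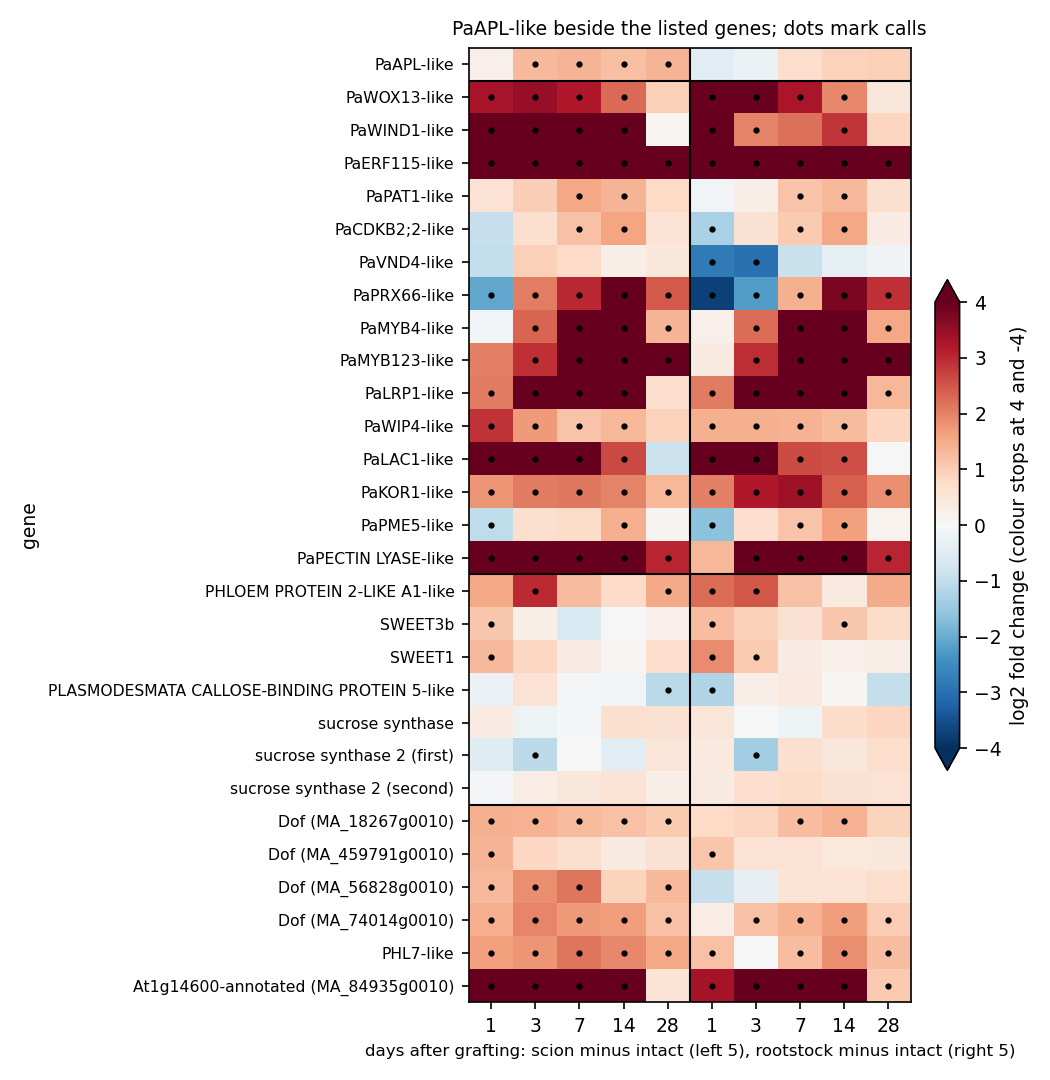
Log2 fold change to intact plants of the same day (colour, which stops at 4 and −4) for *PaAPL-like* and the listed genes that passed the filter, with scion in the left and rootstock in the right columns. Black dots mark calls. *PaAPL-like* in the top row is called on days 3, 7, 14 and 28 in scion and on no day in rootstock, and the phloem transport genes in the second block from the bottom hold 14 dots in all, 10 of them for higher levels.

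Likeness of pattern was measured for 38435 genes as the Pearson correlation of log2 group means with those of *PaAPL-like* over the 16 groups. The median correlation was 0.04, 563 genes (1.46%) lay above 0.8 and 60 above 0.9, and 441 lay below −0.8. The 10 genes most like it, MA_201937g0020 first, had correlations of 0.94 to 0.96, and the sources used here annotate none of them. After the neighbour came MA_61462g0020 (0.96), MA_141240g0010 (0.96), MA_10435248g0010 (0.95), MA_20550g0010 (0.95) and MA_63056g0010 (0.95). Beyond the filter on low counts, this ranking set no minimum level. MA_61462g0020 had a mean of only 6.55 normalized reads and a correlation of 0.76 over the 48 libraries. MA_81097g0010, also among the 10, had a mean of 4.54. From day 0 to scion on day 28 the log2 of the mean level differed by 0.88 for MA_20550g0010 to 2.695 for MA_63056g0010 among the 10, against 1.45 for *PaAPL-like*. Lowest in the ranking were MA_830860g0010 at −0.94 and MA_10427822g0010 and MA_140292g0010 at −0.93, with differences of −1.16, −0.53 and −1.46 between the same groups. The points share libraries and days, so these correlations are descriptions.

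**Figure D5:**
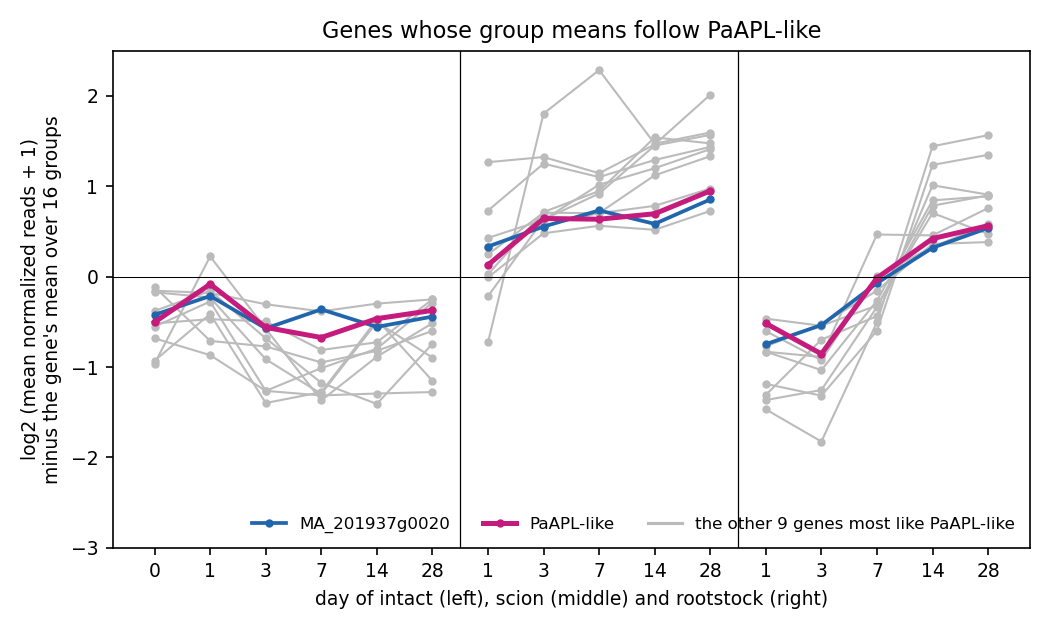
Group means on the log2 scale, each gene set to its own mean over 16 groups (vertical axis), for *PaAPL-like*, MA_201937g0020 and the other 9 genes most like *PaAPL-like*, by day within intact, scion and rootstock (horizontal axis). All lines lie above 0 in scion from day 3 and in rootstock on days 14 and 28, and the line of MA_201937g0020 has the highest correlation with that of *PaAPL-like*, 0.96.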

How the data were processed

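The authors prepared stranded poly(A) libraries, trimmed reads with fastp, aligned them with STAR to the spruce genome and used HTSeq to count reads per gene model. The deposited values are these whole-number counts for 48 libraries, without scaling; every column was matched to a sample, and steps before counting were not repeated here. Groups came from the sample titles.

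Counts were tested with edgeR 4.0.16 in R 4.3.3 (filterByExpr with a minimum count of 10, TMM factors, robust quasi-likelihood fit of all 16 groups). SE was derived from the fold change and its *F* statistic. Normalized reads used DESeq2 1.42.0 size factors, and DESeq2 was an alternative test. On counts simulated for scion minus intact on day 3, with 200 of 37286 genes changed by 1.5 on the log2 scale, 194 were called with 1 wrong call. The changed genes were drawn from those above a set level of expected reads and raised in that group alone, while the real comparison called 17.4% of genes. Genes with fewer reads, or with folds nearer the threshold such as the 1.28 of *PaAPL-like*, were not simulated. Permutation tests used SciPy 1.17.1, with 100000 permutations for relations with day. Fits without a library took the dispersion trend from every 4th gene. Other alternatives were scaling, filters, depth (a single random thinning to the smallest total), a replicate block, pseudocounts and fits of only the groups compared. The sum with MA_201937g0020 was added after its values had been seen.

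Named genes are *PaAPL-like*, the spruce genes that the study names and its Dof and MYB-CC annotations. They also include the genes grouped here as phloem transport and the 10 most and 3 least like genes. The gene and these lists were chosen with earlier results of these data known. Replicate numbers were not taken to pair the libraries, since no label says so and not every same-numbered pair deviated together. No sequence is shown, since no genome or annotation was used.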

Additional observations from a re-analysis of the deposited data

Results flagged for a closer look

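The level of *PaAPL-like* differed between the sides of the graft by edgeR's quasi-likelihood test of scion against rootstock. Without divided intact tissue, side of the graft and position along the stem cannot be told apart. The log2 difference was 0.66 on day 1 (adjusted *p* = 0.00442), 1.50 on day 3 (adjusted *p* = 1.01e-08) and 0.67 on day 7 (adjusted *p* = 0.00166), and scion was higher in 9 of 9 pairs of libraries on each of these days. After thinning all libraries to the smallest total the day 1 value was 0.39 with an adjusted *p* of 0.296, while days 3 and 7 kept an adjusted *p* under 0.05. The difference itself changed with time, by −1.10 from day 3 to day 28 (edgeR adjusted *p* = 0.0011). Values of xylem and division markers on the same days are given above, and their part was not tested.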

How the results depend on the processing

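Of the 43 comparisons and contrasts of *PaAPL-like*, RLE size factors, no filter and fits of only the groups compared changed no call or direction. The change of the scion minus rootstock difference from day 3 to day 7 passed the threshold with DESeq2 (−0.83), with at least 1 CPM in 6 libraries (−0.83) and with the replicate number as a block (−0.83; within days, −0.89). The blocks changed no other call. The numbers were not taken as pairs: same-numbered scion and rootstock libraries deviated together, at a correlation over 0.1, in 10 of 15 pairs (−0.14 to 0.40, median 0.16, against 3 of 30 other pairs with a median of −0.07). On days 7, 14 and 28 all same-numbered pairs did, at 0.13 to 0.40, and no other pair. On day 1 scion 2 with rootstock 3 (0.15) and scion 3 with rootstock 2 (0.21) did, and on day 3 scion 2 with rootstock 1 (0.12). The main tests and the exact permutation test used no pairing. Rootstock on day 14 minus day 0 became a call with library size alone (1.12) and after thinning (1.08), and the sum with MA_201937g0020 moved the day 1 to day 28 contrast to −0.59. Values near 0 turned sign: scion day 7 minus 3 with library size alone (0.039) and with the sum (0.11); after thinning, intact day 3 minus 0 (0.051), rootstock day 1 minus intact day 0 (0.18) and the contrast of days 28 and 14 (−0.093); with the sum, intact day 14 minus 0 (−0.081), scion day 14 minus 7 (−0.068) and rootstock day 3 minus 1 (0.081). None of these was called. With 1 library left out at a time, calls for scion minus intact on days 3 to 28, scion minus rootstock on day 3 and its change to day 28 stayed. Rootstock minus intact ranged from −0.40 to 0.011 on day 3, 0.77 to 1.06 on day 14, 0.87 to 1.05 on day 28 and, over days, 0.26 to 0.52. Against day 0, intact plants ranged from −0.26 to 0.17 on day 3, −0.35 to 0.079 on day 7, −0.13 to 0.30 on day 14 and −0.025 to 0.41 on day 28, and rootstock from −0.21 to 0.22 on day 1, 0.79 to 1.22 on day 14 and 0.92 to 1.35 on day 28. Scion steps ranged from −0.12 to 0.10 (day 3 to 7) and −0.044 to 0.17 (day 7 to 14), and the change of the scion minus rootstock difference from −0.035 to 0.19 (day 14 to 28) and −1.002 to −0.66 (day 3 to 7). The cause was not tested.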
